A study of Mus musculus with 2 samples.

Results

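Transcripts of white adipocytes were followed in the mammary glands of mice that lost the transcription factor gene Gata3. The 10 genes chosen were Adipoq, Lep, Retn, Cfd, Fabp4, Car3, Cd36, Pparg, Lpl and Lipe, taken as the features of the array whose annotated symbol was one of them. They were measured by 12 of the 38976 features, which stood for 9 of the 15056 genes named on the array. Car3 had 2 features, Pparg had 3 and each of the other measured genes had 1, and Cfd, which encodes the serine protease adipsin, was not analysed here.

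The adult mouse mammary epithelium grows as a tree of ducts inside a fat pad, so RNA of a whole gland holds many transcripts of white adipocytes. These cells take up fatty acids, store them as triglyceride in a single large droplet, release them again by lipolysis and secrete hormones called adipokines. Pparg is the nuclear receptor that drives their differentiation, and in mouse preadipocytes Gata3 is known to hold that differentiation back.

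Glands came from adult mice of the genotypes GATA-3flox/flox; WAP-rtTA-Cre (null) and GATA-3flox/+; WAP-rtTA-Cre (het), all given doxycycline for 5 days. The null mice carried 2 floxed Gata3 alleles and the het mice 1, and the het controls shared both the transgene and the drug. The transgene is driven by the promoter of the whey acidic protein gene Wap, which is active in mammary epithelium. There were 2 two-colour arrays, each carrying null RNA in Cy3 and het RNA in Cy5, and the dyes were swapped on 0 of them. Separate animals or pools are not named for the hybridised RNA, so each SD and p-value reflects variation between these 2 samples that may be technical.

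Each value is a log ratio of the channels, read as log2, and no label says which dye was on top. If the ratio was Cy5 over Cy3, a negative value means more RNA in the null gland, and if it was Cy3 over Cy5, more in the het gland. All signs below follow the deposited table, so the choice between these readings turns all of them together. Gata3 itself had a ratio of 1.60 on array 1 and 0.21 on array 2 (limma adjusted p = 0.156 over genes), which does not settle the direction. Its difference of 1.39 between the arrays stood at percentile 99.3 of all genes, so the arrays did not give equal ratios for the floxed gene. Over all genes the ratios had an SD of 0.61 on array 1 and 0.41 on array 2, with medians of 0.01 and -0.01. The files hold ratios and no levels, so the presence of fat in either gland could not be checked from the level of its markers.

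The comparison within each array asked whether the adipocyte transcripts differed between null and het glands. No member gene passed limma's moderated test over all genes, with adjusted p from 0.0950 to 0.967, where 8.26% of all genes passed. At an unadjusted p under 0.05 there were 4 of 9 member genes (Adipoq, Car3, Cd36 and Lep), against 23.8% of all genes. Over features, 0 of 12 passed (limma adjusted p from 0.115 to 0.991) and 0.00% of all features did, and 5 of 12 had an unadjusted p under 0.05, against 22.0% of all. The lowest adjusted p over all features was 0.0512 in limma. The count of features that passed became 2724 with the median of each array subtracted, 5014 with equal median absolute deviations and 5121 after quantile normalization, and that of member features 0, 1 and 1. With 2 arrays the smallest p of an exact sign-flip test is 0.5, so these p-values borrow the spread of the other features.

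Of the 9 genes, 4 were negative on both arrays (34.1% of all genes), 2 were positive on both (33.7%) and 3 had opposite signs (32.1%). Their median ratio was -0.31 on array 1 and -0.15 on array 2, beside 0.01 and -0.01 over all genes. The median of their mean ratios over both arrays was -0.02, and it was -0.02 over all genes as well. In RNA of a whole gland, fewer fat cells and less of a transcript per fat cell cannot be told apart.

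**Figure D1:**
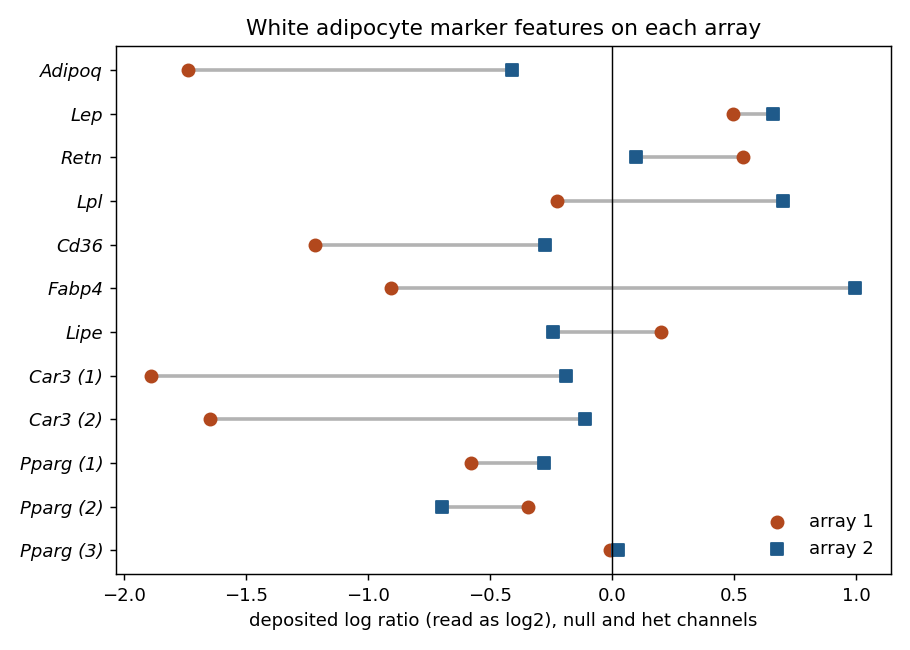
Log ratio (read as log2, horizontal axis) of each of the 12 features of white adipocyte marker genes, as a circle for array 1 and a square for array 2, with a grey line joining them. The features of Adipoq, Cd36 and Car3 lie at -1.22 or below on array 1 and between -0.41 and -0.11 on array 2, and Fabp4 and Lpl lie on opposite sides of 0.

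The adipokine genes did not share a direction. Adipoq, which encodes adiponectin, the most abundant hormone of fat cells, had a ratio of -1.74 on array 1 and -0.41 on array 2, averaging -1.07 ± 0.94 (SD over n = 2 arrays; limma adjusted p = 0.0950). These are differences of 3.33-fold on array 1 and 1.33-fold on array 2. Adipoq was the most negative member by its mean, with a 95% interval from -1.83 to -0.32, and it stood at percentile 0.422 of all genes on array 1 and 8.97 on array 2. It passed after quantile normalization (limma adjusted p = 0.0127) and with the arrays scaled to equal median absolute deviation (limma adjusted p = 0.0404), and over its 6 alternatives the adjusted p ran from 0.0127 to 0.115. Lep, which encodes the satiety hormone leptin, had ratios of 0.50 and 0.66, averaging 0.58 ± 0.12 (SD over n = 2 arrays; limma adjusted p = 0.105). Both arrays placed Lep above 0, at percentiles 80.9 and 90.2, and over its 7 alternatives the limma adjusted p ran from 0.0228 to 0.115. Retn, which encodes resistin, a hormone made by fat cells in mice, had ratios of 0.54 and 0.10 (mean 0.32 ± 0.31, SD over n = 2 arrays; limma adjusted p = 0.392). Lep and Retn, the members positive on both arrays, thus lay on the other side of 0 from Adipoq on each array.

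Genes of fatty acid uptake and carriage did not keep the same order on the arrays. Cd36, a fatty acid translocase of the cell surface, had ratios of -1.22 and -0.28, averaging -0.75 ± 0.66 (SD over n = 2 arrays; limma adjusted p = 0.137). It was negative on both arrays, at percentile 1.45 on array 1 and 17.7 on array 2. Lpl, the lipoprotein lipase that frees fatty acids from circulating triglyceride, had ratios of -0.23 and 0.70 (mean 0.24 ± 0.66, SD over n = 2 arrays; limma adjusted p = 0.647). Fabp4, the fatty acid-binding protein of the adipocyte cytosol, had a ratio of -0.90 on array 1 and 0.997 on array 2. Its mean of 0.05 ± 1.34 (SD over n = 2 arrays; limma adjusted p = 0.965) lay between large ratios of opposite sign. Fabp4 stood at percentile 3.69 of all genes on array 1 and 97.4 on array 2, and the 95% interval of its mean ran from -0.95 to 1.04. Cd36 and Fabp4 are also made by capillary endothelium and macrophages, and Lpl by muscle.

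The remaining members were a lipase, an abundant enzyme and the adipogenic receptor. Lipe, the hormone-sensitive lipase of lipolysis, had ratios of 0.20 and -0.24, averaging -0.02 ± 0.31 (SD over n = 2 arrays; limma adjusted p = 0.967). Of the members it lay nearest to 0 by its mean. Car3, a cytosolic carbonic anhydrase abundant in rodent fat and in skeletal muscle, had ratios of -1.89 and -0.19 by its first feature and -1.65 and -0.11 by its second. These features differed by 0.24 on array 1 and 0.08 on array 2, so they gave the same picture, a large negative ratio on array 1 and a small one on array 2. Their means put Car3 at -1.77 and -0.15, averaging -0.96 ± 1.15 (SD over n = 2 arrays; limma adjusted p = 0.175).

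Pparg was the member with the least difference between arrays after its features were averaged, at -0.31 on array 1 and -0.32 on array 2 (mean -0.31 ± 0.005, SD over n = 2 arrays; limma adjusted p = 0.342). Its 3 features did not share this value. The first had ratios of -0.58 and -0.28, the second -0.35 and -0.70, and the third -0.01 and 0.02. The gap between its highest and lowest feature was 0.57 on array 1 and 0.72 on array 2, so the small SD of the averaged gene understates the spread. All 3 features carry the same transcript accession in the annotation, and the files do not say whether they are copies of 1 probe.

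Promoters are shown for the members that had one sign on both arrays and a single window in the RefSeq table of GRCm38.p6, in which 7 of the 10 listed genes had an entry. Adipoq (chr16:23146286-23146585, plus strand) and Cd36 (chr5:17835847-17836146, minus strand) were the negative ones, and Lep (chr6:29059971-29060270, plus strand) and Retn (chr8:3655520-3655819, plus strand) the positive ones. Each window runs from 250 bases before the gene start to 50 after it. Capitals mark matches on either strand to TATAAA (the TATA box), TTGCNNAA (a core of C/EBP sites), GATAA (a core of GATA factor sites) and AGGTCA (a core of nuclear receptor sites). A repeat of that core after a spacer of 1 base, the form bound by Pparg with Rxr, was searched too and overlaps it.
Adipoq: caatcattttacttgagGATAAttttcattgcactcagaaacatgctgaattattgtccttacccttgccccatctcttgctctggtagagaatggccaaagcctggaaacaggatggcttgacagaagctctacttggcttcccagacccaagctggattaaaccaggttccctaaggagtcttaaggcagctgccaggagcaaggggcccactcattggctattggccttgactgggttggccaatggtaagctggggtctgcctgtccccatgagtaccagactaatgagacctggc
Cd36: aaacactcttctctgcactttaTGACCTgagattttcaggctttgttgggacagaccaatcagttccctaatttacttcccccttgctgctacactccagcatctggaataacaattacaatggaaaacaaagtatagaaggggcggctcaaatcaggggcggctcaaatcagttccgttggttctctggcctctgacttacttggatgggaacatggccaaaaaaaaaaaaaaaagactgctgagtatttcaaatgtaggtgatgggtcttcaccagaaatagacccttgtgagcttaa
Lep: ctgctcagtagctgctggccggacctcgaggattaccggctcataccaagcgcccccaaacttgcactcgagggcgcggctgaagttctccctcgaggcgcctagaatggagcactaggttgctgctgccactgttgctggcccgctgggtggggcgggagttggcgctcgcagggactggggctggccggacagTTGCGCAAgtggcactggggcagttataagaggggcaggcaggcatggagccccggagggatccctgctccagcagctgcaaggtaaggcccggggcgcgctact
Retn: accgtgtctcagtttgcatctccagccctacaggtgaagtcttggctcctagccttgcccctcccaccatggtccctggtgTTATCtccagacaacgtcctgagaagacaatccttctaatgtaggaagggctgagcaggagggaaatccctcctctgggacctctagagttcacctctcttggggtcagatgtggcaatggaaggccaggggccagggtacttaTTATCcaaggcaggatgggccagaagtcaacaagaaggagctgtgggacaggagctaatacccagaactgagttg
The GATA core occurred at 233 bases before the start of Adipoq and at 169 and 25 bases before that of Retn, and 25.4% of the 32851 windows in the table hold it. Lep had a C/EBP core 55 bases before its start, which 10.8% of windows hold, and Cd36 a nuclear receptor core 228 bases before its start, which 16.3% hold. The TATA box letters, held by 13.6% of windows, and the repeat, held by 0.0396%, were in none of the 4 windows shown. The GATA core was thus found in a window of a negative and of a positive member, and a match is a description of letters and not a site.

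Compared gene by gene, the arrays differed in several members by more than most genes did. Subtracting array 2 from array 1 gave -1.90 for Fabp4, -1.62 for Car3 and -1.33 for Adipoq, then -0.94 for Cd36 and -0.93 for Lpl. The others were at -0.17 (Lep), 0.01 (Pparg), 0.44 (Retn) and 0.44 (Lipe). The median difference over the 9 genes was -0.93, beside 0.03 over all genes. Ratios were lower on array 1 than on array 2 in 6 of 9 members, against 47.0% of all genes, and lower by at least 1 in 3 of 9 members (Adipoq, Car3 and Fabp4), against 2.16% of all genes. None was higher on array 1 by at least 1, where 2.31% of all genes were. These counts describe 2 arrays, and a single value per array and gene leaves no error with which to test the difference.

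**Figure D2:**
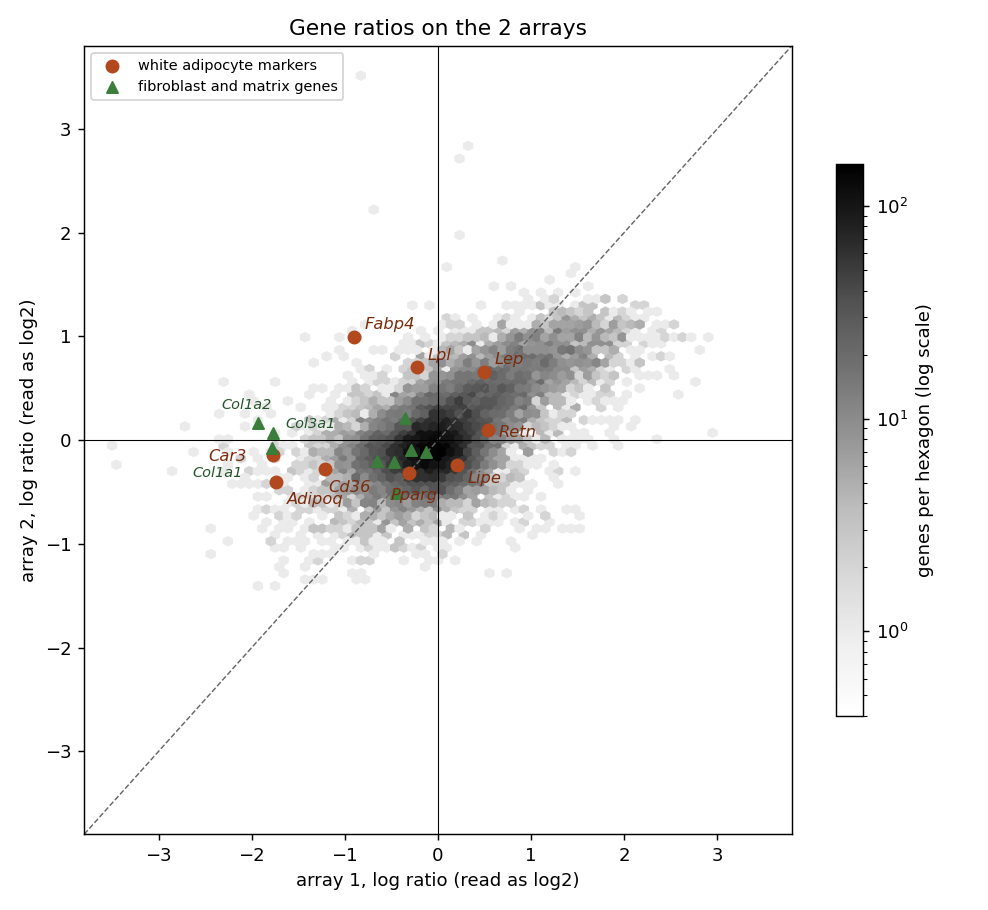
Gene log ratios (read as log2) of array 1 (horizontal axis) and array 2 (vertical axis) for all 15056 genes as grey hexagons shaded by the number of genes on a log scale, with the 9 white adipocyte markers as circles and 9 fibroblast and matrix genes as triangles. The dashed line marks equal ratios. Adipoq, Car3 and Cd36 lie far to the left, at -0.41, -0.15 and -0.28 on array 2. Col1a1, Col1a2 and Col3a1 also lie far to the left, at -0.07, 0.16 and 0.07 on array 2, while Fabp4 lies in the upper left.

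The spread between features of the same gene gives a rough yardstick for a gene with 1 feature. A gap holds the error of both features, so it is expected to be wider than the error of 1. Over 3598 genes with 2 features, their gap had a median of 0.51 on array 1 and 0.35 on array 2, and its 90th percentile was 1.45 and 0.99. Of the 7 members with 1 feature, Adipoq was larger in size than that percentile on array 1, Cd36, Fabp4 and Retn lay between it and the median, and Lep, Lpl and Lipe were within the median gap. On array 2 Fabp4 was just past the percentile at 0.997, Lep, Lpl and Adipoq lay between it and the median, and Retn, Cd36 and Lipe were within the median gap. For array 1 minus array 2, the gap between 2 features had a median of 0.44 and a 90th percentile of 1.18. As deposited, Fabp4 (-1.90) and Adipoq (-1.33) were past that percentile in size. Cd36 (-0.94) and Lpl (-0.93) lay between it and the median, Retn and Lipe lay close to the median, and Lep was within it. This yardstick holds no variation between samples, so it does not test the difference between the arrays.

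Array 1 had the wider spread over all genes, and scaling the arrays alike altered the differences without removing them. With equal median absolute deviations, Adipoq differed by -1.03, Car3 by -1.37, Fabp4 by -2.01, Lpl by -1.07 and Cd36 by -0.74. After quantile normalization the difference was -0.83 for Adipoq, -1.22 for Car3, -2.0 for Fabp4, -1.03 for Lpl and -0.64 for Cd36. Adipoq was therefore no longer among the members at least 1 lower on array 1, and Lpl was. The sign of the mean ratio of each member gene was kept under both scalings, under median subtraction and under subtraction of the medians of 48 runs of consecutive features. The medians of the runs that hold the members lay between -0.03 and 0.01 on array 1 and between -0.07 and -0.02 on array 2.

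**Figure D3:**
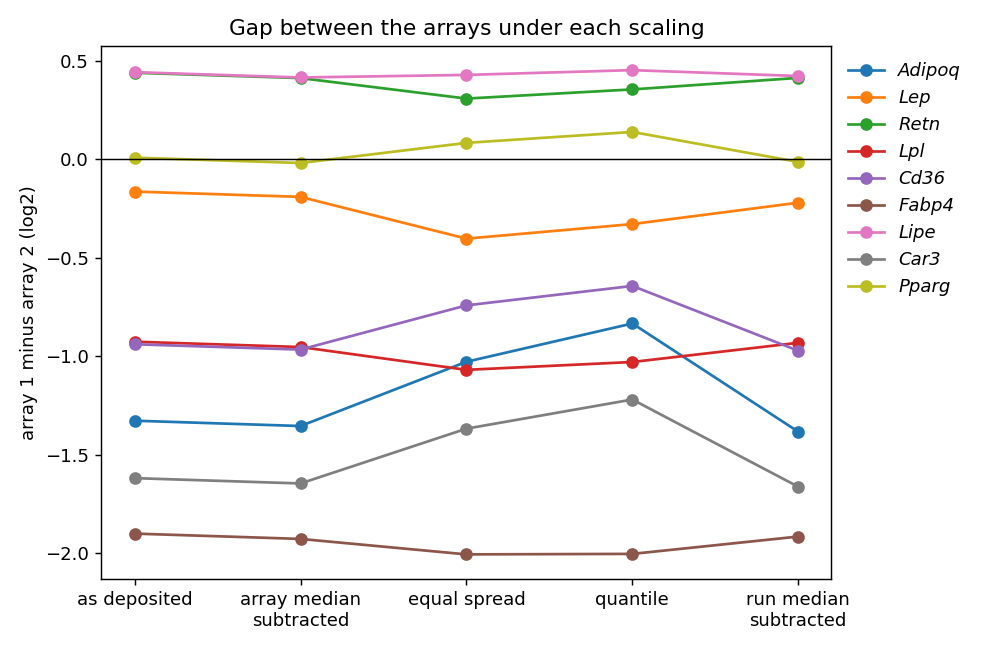
Array 1 minus array 2 (log2, vertical axis) of each white adipocyte marker gene, as a coloured line over 5 treatments of the arrays on the horizontal axis, from the values as deposited to subtraction of run medians. Fabp4 and Car3 stay at or below -1.22 throughout, and Adipoq ranges from -1.38 to -0.83.

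Other genes of white fat were taken from 7 lists by role, holding 70 further genes of which 61 were measured. Their medians were -0.13 on array 1 and -0.02 on array 2, and 27 were negative on both, 17 were positive on both and 17 had opposite signs. The gene-level limma test passed 2 with positive ratios, against 7.28% of all genes, and 2 with negative ratios, against 0.983% of all genes. The negative ones were Apoe, a lipid-carrying apolipoprotein also made by macrophages, at -1.46 and -0.70 (limma adjusted p = 0.0415), and Sfrp5, a secreted Wnt inhibitor of fat, at -1.31 and -0.63 (limma adjusted p = 0.0484). The positive ones were Bscl2, which encodes seipin, a protein of lipid droplet formation, at 0.66 and 0.99 (limma adjusted p = 0.0476), and Srebf1, a lipogenic transcription factor, at 0.87 and 1.14 (limma adjusted p = 0.0337). Each of these genes had 1 feature, and in the test over features 0 of all features passed (lowest limma adjusted p = 0.0512). The same limit holds for every gene named below as past the gene-level test.

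By role, the secreted proteins outside the members held 7 genes of 10 that were negative on each array and 2 that were positive on each. Adig, the small adipocyte protein adipogenin, stood at -0.85 and -0.34. Among the 12 storage genes 5 were negative and 4 positive on both, with Plin1, the coat protein perilipin of fat droplets, at -0.81 and -0.14, and Lgals12, a galectin of fat droplets, at 1.13 and 0.56. Droplet genes thus stood on either side of 0. For lipolysis, 2 of 8 genes were negative and 2 positive on both, with G0s2, an inhibitor of adipose triglyceride lipase, at -0.73 and -0.37, and Abhd5, the activator of that lipase, at 0.79 and 0.51. Of 10 transcription factors 5 were negative and 3 positive on both, and Rxra, the partner of Pparg, stood at 0.84 and 0.38. Of the 6 genes of fatty acid uptake 2 were negative and 3 positive on both, with Cavin1, a coat protein of caveolae, at -0.30 and -0.48. None of Adig, Plin1, Lgals12, G0s2, Abhd5, Rxra and Cavin1 passed over all genes.

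Of these 61 genes 4 were at least 1 lower on array 1, against 2.16% of all genes, and 0 were at least 1 higher, against 2.31% of all genes. Scd1, the stearoyl-CoA desaturase, had ratios of -2.25 and -0.12, and Trarg1, a regulator of glucose transporter traffic in fat, -1.95 and -0.43. Fasn, the fatty acid synthase, had -1.08 and 0.46, and Pck1, an enzyme of glycerol synthesis in fat, -1.08 and 0.16. Scd1 and Trarg1 resembled Adipoq and Car3 in being negative on both arrays and far more so on array 1, while Fasn and Pck1 had opposite signs, as Fabp4 had. None of the 4 passed the gene-level test.

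Relatives of the members by protein family were read in the same way. Of 42 listed relatives 36 were measured, and 2 of these, Car6 and Nceh1, were at least 1 lower on array 1, where 2.16% of all genes were. The relatives of Adipoq stood at medians of 0.04 and -0.15 over 7 genes, and C1qtnf1, a secreted relative, passed the gene-level test with 0.88 and 0.82 (limma adjusted p = 0.0391). The other relative past that test was Fabp9, a fatty acid-binding protein of the testis, at -0.98 and -0.79 (limma adjusted p = 0.0376). Thus 2 of the 36 measured relatives passed, where 8.26% of all genes did. Fabp5, the epidermal fatty acid-binding protein found also in fat, stood at 0.95 and 0.41, and Fabp3, the heart form, at 0.67 and 0.43. Fabp5 and Fabp3 were positive on array 1, where Fabp4 and Fabp9 were negative. Among carbonic anhydrases Car6, a secreted form, had ratios of -1.31 and -0.14, a pattern like that of Car3, while Car2 had 0.46 and 0.13 and Car1 1.17 and 0.00. Retnla, a relative of resistin made by fat and by macrophages, had -0.46 and 0.02. The other receptors of the Pparg family were at 0.25 and -0.14 for Ppara and at -0.58 and -0.00 for Ppard, and neither passed.

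Markers of other cells of the gland were read beside the adipocyte genes. The fibroblast list also lay lower on array 1, with medians of -0.47 on array 1 and -0.09 on array 2 over 9 genes. On array 1, 8 of 9 were lower, against 47.0% of all genes, and Fn1, at -0.45 and -0.51, was not. By at least 1, 3 of 9 were lower, against 2.16% of all genes. Col1a1, Col1a2 and Col3a1, chains of the fibrillar collagens, had ratios of -1.79, -1.93 and -1.77 on array 1 and -0.07, 0.16 and 0.07 on array 2. Macrophage genes stood at medians of -0.51 and -0.04 over 8 genes, and 4 of 8 were lower on array 1, against 47.0% of all genes. On both arrays 4 macrophage genes were negative and 2 positive. Of the 8 genes 1 passed with a positive ratio, against 7.28% of all genes. It was Ctss, the protease cathepsin S, at 1.64 and 1.26 (limma adjusted p = 0.0336). Laptm5 (-0.80 and -0.62) and Itgam (-0.54 and -0.77) lay on the other side of 0 and did not pass. The part of these cells in the adipocyte ratios was not tested.

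Luminal epithelial genes had medians of -0.01 on both arrays over 15 genes, and basal genes 0.02 and -0.10 over 9 genes. Krt5, a basal keratin, passed with a negative ratio at -1.31 and -0.62 (limma adjusted p = 0.0494). Krt14, also a basal keratin, lay on the other side of 0 at 1.10 and 0.51 and did not pass (limma adjusted p = 0.0690). Of the 9 basal genes 4 were negative on both arrays and 3 positive on both. Among luminal genes Foxa1, a luminal transcription factor, at -1.30 and 0.16, was at least 1 lower on array 1. Of the 15 luminal genes 2, Aldh1a3 and Cd24a, passed with positive ratios, against 7.28% of all genes. The luminal keratins Krt8 (-0.81 and -0.44) and Krt18 (-0.89 and -0.35) were negative on both arrays and did not pass. On both arrays 6 luminal genes were negative and 5 positive. Endothelial genes had medians of 0.04 and 0.16 over 9 genes, and lymphocyte genes -0.16 and -0.02 over 8 genes. Cd3g, a chain of the T cell receptor complex, passed at 1.10 and 0.68 (limma adjusted p = 0.0428). Cd3e, another chain of that complex, had -0.53 and -0.17 and did not pass. Of the 8 lymphocyte genes 3 were negative on both arrays and 2 positive on both. Skeletal muscle, which also makes Car3, gave medians of -0.26 and -0.20 over 8 genes, with 5 negative on both arrays and 2 positive on both. At least 1 lower on array 1 were 0 of the 8, against 2.16% of all genes. Tnnc2 had -1.095 and -0.39 and Pvalb 0.64 and 0.61, and neither passed. The part of muscle in the Car3 ratios was not tested. Brown adipocyte genes had medians of 0.21 and 0.17 over 11 genes. Of these, 0 were negative on both arrays (34.1% of all genes) and 7 were positive on both (33.7% of all genes). Ucp1, the uncoupling protein that defines brown fat, stood at -0.08 and 0.00. Of the 11 genes 1 passed with a positive ratio, against 7.28% of all genes. It was Otop1, a proton channel gene, at 1.26 and 1.16 (limma adjusted p = 0.0336). Genes of fat precursors had medians of -0.00 and -0.12 over 10 genes, a list that includes the floxed gene Gata3 itself. Of these 10 genes 4 were negative on both arrays and 3 positive on both. Dlk1, an inhibitor of fat cell differentiation, had 0.95 and 0.15. Cd34 had -0.19 and -0.50 and Gata2 -0.48 and -0.12, and none of these named genes passed.

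**Figure D4:**
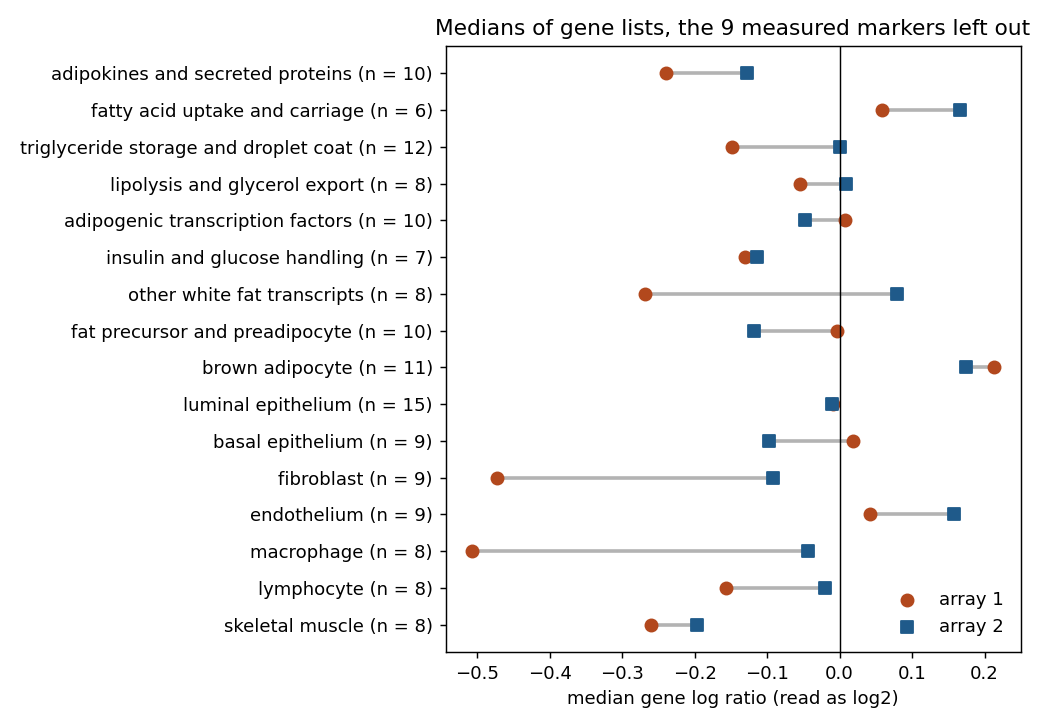
Median gene log ratio (read as log2, horizontal axis) of each gene list on array 1 (circle) and array 2 (square), with the 9 white adipocyte markers left out and the number of measured genes given in brackets. The fibroblast and macrophage lists lie at -0.47 and -0.51 on array 1, the lowest of the lists shown, and the brown adipocyte list lies at 0.21 and 0.17.

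The genes whose pair of ratios lay nearest to that of Adipoq, by Euclidean distance over the 2 arrays, were Twf2 (distance 0.01), Ahcy (0.04) and Rdh5 (0.07). Within a distance of 0.5 of Adipoq there were 111 genes, so many genes resembled Adipoq over 2 arrays and such likeness is unspecific.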

How the data were processed

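Total RNA of null and het mammary glands was compared on 2 spotted oligonucleotide arrays of 38976 features, per the labels. The deposited values are log2 ratios by reading, made by the authors with print-tip lowess in Acuity 4.0, as the series' design text states. The log base, direction, centring, background correction and spot filters were not stated, and another base would rescale every value. Ratios keep no signal or depth, so dim or saturated spots could not be marked. Precision is limited by the number of arrays. No columns of values were left unused (0).

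Symbols came from the platform annotation (22973 features with 1 symbol, all matched by Entrez ID to RefSeq genes of GRCm38.p6). The features of a gene were averaged. The test of each ratio against 0 used limma 3.58.1 (R 4.3.3) with an intercept, was two-sided and had a threshold of 0.05 after Benjamini-Hochberg adjustment across all features or all genes. The residual degree of freedom was 1 and the prior added 5.32 for features and 5.41 for genes. The fit was tested on simulated data. Gene lists were described by counts and medians with no test. The members and lists were chosen with earlier results of these data known. Named were all members, Gata3 and every list gene or relative past the test. The rule fixed for naming covered all relatives and more list genes, of which examples are given and the rest counted: from the other relatives and, per list, from the 4 genes of largest mean with one sign and the 2 that differed most between arrays. The 3 genes nearest to Adipoq were named too. Fasn and Ucp1 were named after their values were seen. The minimum difference of 1 between arrays was set after seeing the data. Figures were drawn with matplotlib 3.10.9.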

Additional observations from a re-analysis of the deposited data

How the results depend on the processing

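Signs of the members' mean ratios held under every alternative that kept both arrays and the gene. With 1 array alone Lpl ranged from -0.23 to 0.70, Fabp4 from -0.90 to 0.997 and Lipe from -0.24 to 0.20, so the sign of these 3 rests on the array used, and the members' median ranged from -0.31 to -0.15. The count of member genes past limma's test, 0 as reported, was 1 with equal median absolute deviations (Adipoq), 2 after quantile normalization (Adipoq and Lep), 1 at an adjusted p of 0.1 (Adipoq) and 2 once features with arrays over 1 apart were dropped (Cd36 and Lep). The count of member features was 1, 1 and 2 under the scaling, quantile and dropping alternatives. Over all features the count of 0 became 2724 with medians subtracted, 5014 with equal deviations, 5121 after quantile normalization, 2518 with run medians subtracted, 7452 after dropping and 4929 at an adjusted p of 0.1. Dropping removes the features with the widest spread by construction, and with them Adipoq, Car3 and Fabp4. It turned the members' median to 0.11 over 6 genes and their median difference between arrays to -0.079. That difference was -0.74 with equal deviations and -0.64 after quantile normalization. The cause of the scaling effects was not tested. No paired analysis was possible because each array already compares the genotypes and there is a single group of ratios. Dim spots could not be judged from ratios.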
